A study of Cervus nippon with 12 samples.

Results

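The miR-30 family is a group of miRNAs that share their seed, the stretch near the 5′ end that pairs with target mRNAs, and that differ mainly in the 3′ part. The members examined here are the 6 names from miR-30a to miR-30f, with any arm suffix, among the 545 miRNA names listed for sika deer antler cells, 475 of them with cattle (bta-) names and 70 of them predicted miRNAs named novel_ with a number. They are miR-30a-5p, miR-30b-5p, miR-30c, miR-30d, miR-30e-5p and miR-30f. Small RNA was sequenced from reserve mesenchyme cells (RMCs), the mesenchymal stem cells of the antler growth centre, before chondrogenic induction (CP_0, day 0), after 7 days (CP_7) and after 14 days (CP_14), and from antler chondrocytes (CC), with 3 libraries in each of the 4 groups. All cells were wild type and came from antler tips of healthy male deer, 3 years old. RMCs were kept in medium with fetal bovine serum, then placed in centrifuge tubes and changed to chondrogenic medium for 0, 7 or 14 days, and the CC cells were cultured by a method that the study cites and does not describe. Time in tubes and time in chondrogenic medium cannot be told apart. The study's methods describe 3 biological replicate experiments per tissue type but do not tie libraries to deer, so that p-values measure the spread between these libraries.

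In mammals the miR-30 genes lie in small clusters, in which miR-30a is paired with a copy of miR-30c, miR-30e with another copy of miR-30c, and miR-30b with miR-30d. The family is known for restraining osteoblast differentiation, among other routes through RUNX2, the transcription factor of hypertrophic chondrocytes and osteoblasts, and for acting on Beclin 1 in autophagy. Since their sequences are nearly identical, reads can be assigned to the wrong member when mismatches are allowed, and the number allowed is not given in the sources used here. No other listed name had reads within 1% of those of a member in every library.

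Levels are given in RPM, the deposited unit, which scales each library to 1000000 miRNA reads. The libraries held between 539455 reads (CP_7) and 10256572 reads (CC), and a single read stood for 1.85 RPM in the former and 0.097 RPM in the latter. The smallest number of reads on a member in a library was 11. miR-21-5p took 60.3% ± 1.2 (SD, n = 3) of the reads in CP_0, 23.2% ± 1.6 at day 7, 48.2% ± 5.0 at day 14 and 75.2% ± 2.0 in CC, which by itself moves the RPM values of the other miRNAs. For that reason comparisons were made after TMM normalization, a composition factor estimated from the bulk of the miRNAs, and the values within the family, which do not depend on any such factor, are given beside them. In bulk RNA a lower value can reflect fewer cells of a type or less RNA per cell, and these cannot be told apart. Among the markers examined, miR-140, the main miRNA of cartilage, stood at 8831 to 10341 RPM in CP_0 and at 9769 to 11013 RPM in CC, so the libraries labelled RMC also held it at a high level. After TMM normalization miR-140 was lower in CP_7 than in CP_0 (log2 fold change -1.03), higher in CP_14 than in CP_7 (0.87) and higher in CC than in CP_14 (0.78), CP_7 (1.46) and CP_0 (0.53), each called. The other cartilage miRNAs examined did not fall at day 7. miR-455-3p was called higher in CP_7 than in CP_0 (1.43) and lower in CP_14 (-0.71) and CC (-0.70) than in CP_7. miR-455-5p was not called between the time points and was called higher in CC than in CP_14 (1.23), CP_7 (0.77) and CP_0 (1.11). A few libraries stood apart in miRNAs of other cell types. CP_0 replicate 3 held 6933 reads of the red blood cell miRNA miR-451 against 27 and 29 in the other CP_0 libraries. It also held more miR-486 (8312 reads against 7 and 20), miR-142-5p (86 against 9 and 6) and miR-206 (52 against 1 and 1). There were 16 reads of miR-223 against 0 and 1. Its miR-451 level of 1906 RPM lay within the 1581 to 2304 RPM of CP_14. CP_7 replicate 3 held 1658 reads of the endothelial miR-126-3p against 143 and 333. In CP_7 replicate 1 there were 263 reads of the muscle miR-206 against 7 and 0. Results that changed when such a library was left out are named below.

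Together the 6 members made up 0.300% ± 0.019 (SD, n = 3) of the reads in CP_0, 0.606% ± 0.082 at day 7, 0.293% ± 0.042 at day 14 and 0.374% ± 0.013 in CC. The highest share of the family was thus at day 7 as deposited. After TMM normalization over the 12 libraries the summed level was 3428 ± 334 in CP_0, 3215 ± 771 at day 7, 2973 ± 595 at day 14 and 6233 ± 679 in CC. On this scale the libraries of the time points overlapped and all CC libraries were above them. The summed level was therefore highest at day 7 on the scale of the deposited values and highest in chondrocytes after normalization. Most of it came from miR-30a-5p and miR-30d. By mean RPM miR-30a-5p ranked between 30 and 40 and miR-30d between 23 and 37 of all listed names in the 4 groups, miR-30e-5p between 31 and 69, miR-30b-5p between 64 and 110, miR-30c between 82 and 102 and miR-30f between 154 and 195.

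**Figure D1:**
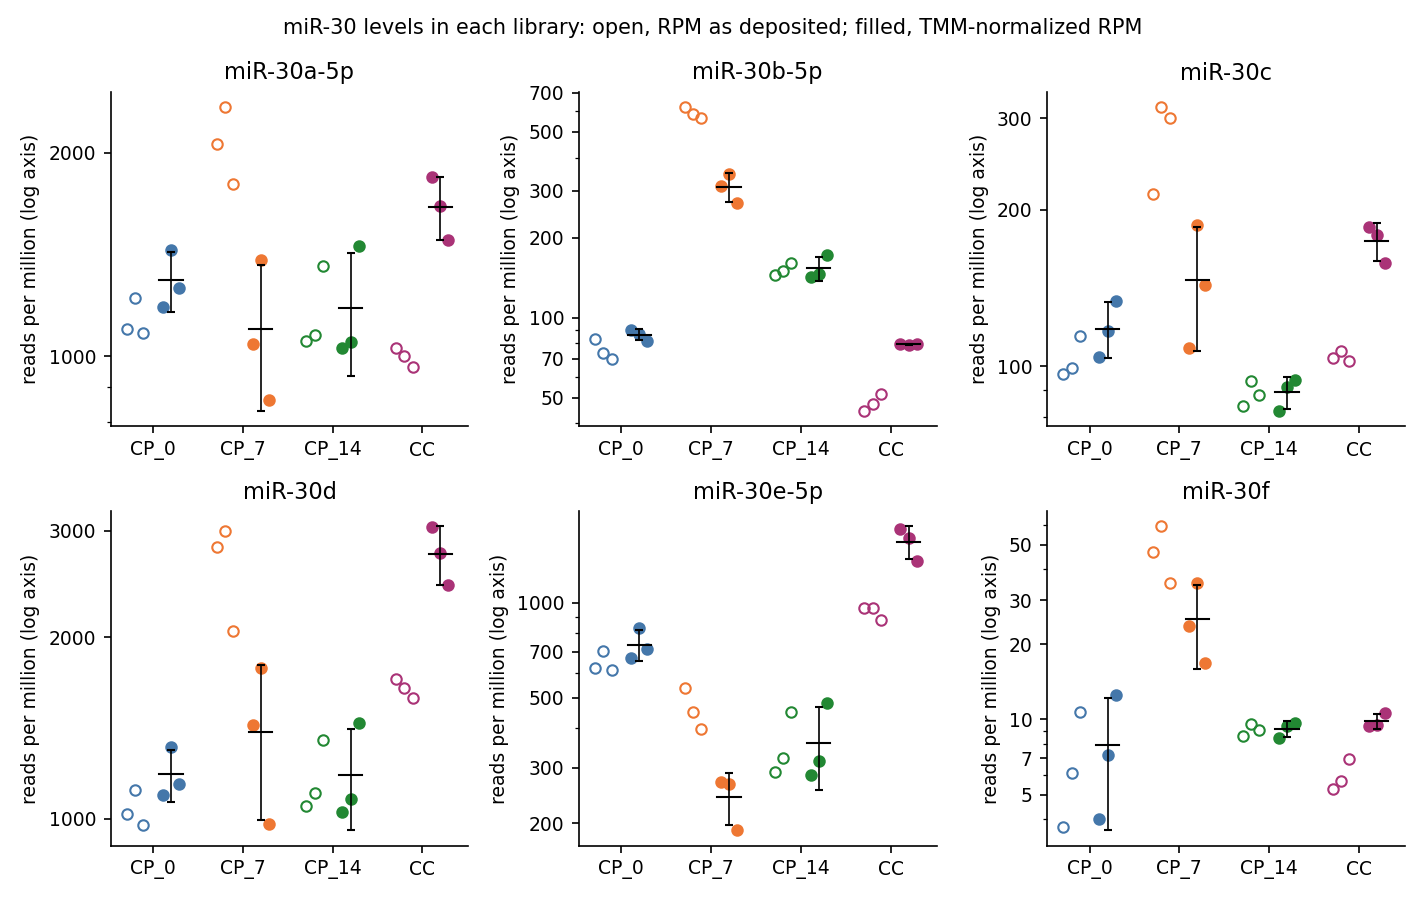
RPM of each miR-30 member in the 12 libraries, on a log axis, as deposited (open circles) and after TMM normalization (filled circles, with the mean as a line and the SD as a bar, n = 3). After normalization miR-30e-5p was lowest at day 7 and miR-30b-5p and miR-30f were highest there, while the CC libraries of miR-30a-5p, miR-30d and miR-30e-5p lay above all others.

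miR-30e-5p was lower during induction than before it and highest in chondrocytes. As deposited it stood at 620.5, 703 and 609.9 RPM in the CP_0 libraries, at 535, 449.6 and 397 in CP_7, at 292, 322 and 449 in CP_14 and at 961, 961 and 883 in CC. All CC libraries were above all CP_0 libraries, and these were above all CP_7 and CP_14 libraries. Behind these values were 214 to 464 reads in CP_7 and 8800 to 9855 in CC. The TMM-normalized levels were 737 ± 84 (SD, n = 3) in CP_0, 242 ± 46 at day 7, 360.0 ± 105 at day 14 and 1560.0 ± 185 in CC. From day 0 to day 7 miR-30e-5p fell by 1.56 on the log2 scale (standard error, SE, 0.17, limma adjusted p = 0.000195), a change below that of all but 7.35% of the miRNAs tested. Between day 7 and day 14 the log2 fold change was 0.47 (95% interval -0.10 to 1.04, limma adjusted p = 0.14), not beyond the spread of these libraries. This difference was called with all 12 libraries in one fit (0.55). At day 14 it was still lower than at day 0 (log2 fold change -1.05, SE 0.20, limma adjusted p = 0.0044). Chondrocytes had more miR-30e-5p than CP_14 (log2 fold change 2.13, SE 0.17, limma adjusted p = 3.4e-06), than CP_7 (2.42) and than CP_0 (0.95, SE 0.11, adjusted p = 0.00070). Thus the order of the levels was CC, CP_0, CP_14 and CP_7, and only the last neighbours did not differ beyond their spread. With each library left out in turn, the log2 fold change ran from -1.89 to -1.44 for CP_7 against CP_0, from -1.31 to -0.93 for CP_14 against CP_0, from 1.98 to 2.34 for CC against CP_14, from 2.37 to 3.02 for CC against CP_7 and from 0.88 to 1.06 for CC against CP_0, and each of these was called. The cartilage miRNA miR-140 moved in the same direction in these comparisons except that CP_14 against CP_0 was not called for it (-0.11, limma adjusted p = 0.13), and its part in the course of miR-30e-5p was not tested. The cartilage miRNAs miR-455-3p (1.43, called) and miR-455-5p (0.25, not called) did not share the fall from day 0 to day 7.

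miR-30b-5p took nearly the opposite course. It stood at 83.4, 73.7 and 70.1 RPM in CP_0, at 618, 585 and 565 in CP_7, at 145, 149.8 and 161 in CP_14 and at 44.5, 47.3 and 51.8 in CC, and none of these groups overlapped. The TMM-normalized levels were 86.3 ± 4.0 (SD, n = 3), 310.1 ± 38.6, 153 ± 16 and 79.3 ± 0.4 in the same order. From day 0 to day 7 it rose with a log2 fold change of 1.88 (SE 0.12, limma adjusted p = 1.56e-05), that is 3.68-fold. It fell by 1.09 from day 7 to day 14 (SE 0.13, limma adjusted p = 0.00045), which left it 1.78-fold above day 0 (log2 fold change 0.84, SE 0.11, limma adjusted p = 0.00060). In CC it was lower than in CP_14 (log2 fold change -0.94, SE 0.10, limma adjusted p = 2.0e-05) and than in CP_7 (-2.22). Against CP_0 the difference was small (-0.25, SE 0.064, limma adjusted p = 0.016). It was no longer called without CP_0 replicate 1 (-0.21), without CP_0 replicate 2 (-0.22), with the replicate number as a block (limma adjusted p = 0.071) with upper-quartile factors (-0.21), with DESeq2 (-0.30) or with all 12 libraries in one fit (-0.12), and it had the opposite direction with the total without miR-21-5p (0.018, not called) and with no normalization (0.83, called). The other 5 differences of miR-30b-5p were called with each library left out, at 1.61 to 1.92 for CP_7 against CP_0 and -1.19 to -0.93 for CP_14 against CP_7. The markers of other cell types moved in part with miR-30b-5p. All 4 muscle miRNAs had reads in every group, and their summed level was 535 to 683 RPM in CP_0, 4536 to 6633 at day 7, 1685 to 1756 at day 14 and 719 to 752 in CC. The sum of both endothelial miRNAs was 47.1 to 63.6 RPM in CP_0, 188 to 3083 at day 7, 57.4 to 83.6 at day 14 and 28.4 to 38.5 in CC, and that of the liver miRNA miR-122 was 13.2 to 21.9, 53.3 to 79.7, 23.03 to 30.8 and 3.09 to 5.82 RPM. These sums are as deposited. After TMM normalization miR-1 and miR-133a were called higher at day 7 than at day 0 (log2 fold change 2.04 and 2.20). From day 7 to day 14 both fell (-0.73 and -0.95, called). Like miR-30b-5p, both were called higher in CP_14 than in CP_0 (1.35 and 1.29). Both were also called lower in CC than in CP_14 (-0.50 and -0.51) and CP_7 (-1.42 and -1.65). In CC against CP_0 they were called higher (0.71 and 0.64), where miR-30b-5p was lower. Between the time points miR-126-3p and miR-206 were not called, and miR-122 was called only for CP_7 against CP_0 (0.72). In CC miR-122 was called lower than in CP_14 (-1.63), CP_7 (-2.24) and CP_0 (-1.38). The part of such cells or RNA in the course of miR-30b-5p was not tested. The red blood cell list did not peak at day 7. The sum of its 3 members was 11.8 to 4192 RPM in CP_0, 22.1 to 145 at day 7, 3486 to 5167 at day 14 and 1387 to 1459.7 in CC, with miR-144 at 0 reads in CP_7 and CP_14. The 3 white blood cell miRNAs together reached at most 29.1 RPM in any library, with miR-223 at 0 reads in CP_7.

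miR-30f, a name used in cattle, was the least abundant member. It had 11, 25 and 39 reads in CP_0, 36, 61 and 19 in CP_7, 24, 29 and 35 in CP_14 and 54, 55 and 69 in CC. In RPM it ranged from 3.70 to 10.7 in CP_0, from 35.2 to 59.1 in CP_7, from 8.60 to 9.59 in CP_14 and from 5.26 to 6.92 in CC, so that only the day 7 libraries stood above the rest. It rose at day 7 (log2 fold change 1.69, SE 0.43, limma adjusted p = 0.010), fell by 1.41 from day 7 to day 14 (SE 0.28, limma adjusted p = 0.0052) and was lower in CC than in CP_7 (-1.48, SE 0.27, adjusted p = 0.0024). The rise was no longer called without CP_7 replicate 1 (1.48) or CP_7 replicate 2 (1.25), and the difference of CC from CP_7 without CP_7 replicate 1 (-1.13) or CP_7 replicate 2 (-0.72). Among CP_0, CP_14 and CC no difference of miR-30f was called. The 95% interval of CP_14 against CP_0 ran from -0.51 to 1.14, which includes a 2-fold rise. The TMM-normalized levels were 7.91 ± 4.31 (SD, n = 3), 25.2 ± 9.2, 9.15 ± 0.67 and 9.84 ± 0.70 in the order CP_0, CP_7, CP_14 and CC. CP_7 was thus highest on both scales, and the order of the other groups, which did not differ beyond their spread, was CC, CP_14 and CP_0 after normalization and CP_14, CP_0 and CC as deposited. At 11 to 39 reads in CP_0, smaller differences were not detectable at this depth.

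After TMM normalization miR-30d and miR-30a-5p, the abundant members, had their highest mean levels in chondrocytes. miR-30d stood at 1017, 1115 and 977 RPM in CP_0, at 2825, 2995 and 2048 in CP_7, at 1050.3, 1105 and 1349 in CP_14 and at 1703, 1649 and 1585 in CC. As deposited, the CP_7 libraries were therefore the highest and those of CP_0 and CP_14 overlapped. After TMM normalization the levels were 1185 ± 117 (SD, n = 3) in CP_0, 1395 ± 400.3 at day 7, 1183 ± 227 at day 14 and 2745 ± 305 in CC. In CC it was higher than in CP_14 (log2 fold change 1.22, SE 0.12, limma adjusted p = 1.40e-05), than in CP_7 (0.74, SE 0.19, adjusted p = 0.011) and than in CP_0 (1.08, SE 0.10, adjusted p = 0.00027). No change of miR-30d was called between the time points, with 95% intervals of -0.21 to 0.71 for CP_7 against CP_0, -0.81 to 0.23 for CP_14 against CP_7 and -0.33 to 0.34 for CP_14 against CP_0. Without CP_7 replicate 3, which is the shallowest library and has the lowest value of its group, CP_7 against CP_0 was called (0.39). With library size only, miR-30d was called higher in CP_7 than in CP_0 (1.32, limma adjusted p = 0.00018) and lower in CP_14 than in CP_7 (-1.16), and the difference of CC from CP_7 had the opposite direction (-0.65, limma adjusted p = 0.0040).

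miR-30a-5p stood at 1098, 1217 and 1081 RPM in CP_0, at 2061, 2335 and 1800.0 in CP_7, at 1051, 1073 and 1362 in CP_14 and at 1029, 999.6 and 965 in CC. The TMM-normalized levels were 1294 ± 131 (SD, n = 3), 1096 ± 267, 1178 ± 242 and 1664 ± 179 in the same order. With TMM factors, the only called difference of miR-30a-5p in the 6 comparisons was that of CC against CP_14 (log2 fold change 0.50, SE 0.13, limma adjusted p = 0.0056). It was called with each library left out, but with library size only it was -0.21 and not called. Against CP_7 the log2 fold change of CC was 0.35 (95% interval 0.0025 to 0.70, limma adjusted p = 0.071) and it was called without CP_7 replicate 2 (1.05), with the replicate number as a block (limma adjusted p = 0.011), with all 12 libraries in one fit (0.62), with RLE factors (0.51), upper-quartile factors (0.87), DESeq2 (0.47), the total without miR-21-5p (0.59) and no normalization (2.68). With library size only it was called in the opposite direction (-1.04). Between the time points the 95% intervals were -0.59 to 0.16 for CP_7 against CP_0, -0.42 to 0.49 for CP_14 against CP_7 and -0.48 to 0.21 for CP_14 against CP_0. The first of these was called lower with upper-quartile factors (-0.56) and no normalization (-1.37) and higher with library size only (0.86). The second was called lower with library size only (-0.83) and higher with no normalization (1.25), and the last was called lower without CP_14 replicate 3 (-0.33). CC against CP_0 (0.23, 95% interval -0.015 to 0.48) was called without CC replicate 3 (0.31), without CP_0 replicate 2 (0.33), with the total without miR-21-5p (0.50) and with no normalization (1.31). As deposited, all CP_7 libraries of miR-30a-5p were above and all CC libraries below the rest. After normalization miR-30a-5p was highest in CC, then in CP_0, CP_14 and CP_7, and no neighbours in this order differed beyond their spread. For miR-30d the order was CC, CP_7, CP_0 and CP_14, and only the first pair of neighbours differed.

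miR-30c, which is made from copies in both the miR-30a and the miR-30e cluster, stood at 96.9, 99.1 and 114 RPM in CP_0, at 214, 315 and 300.3 in CP_7, at 83.8, 93.6 and 88.0 in CP_14 and at 104, 107 and 103 in CC. The TMM-normalized levels were 118 ± 14 (SD, n = 3), 146 ± 39, 89.2 ± 6.4 and 174 ± 14 in the same order, and the CP_14 libraries were below all others. Against CP_7 it was lower in CP_14 (log2 fold change -0.76, SE 0.18, limma adjusted p = 0.0097), a call lost without CP_7 replicate 2 (-0.48) or CP_7 replicate 3 (-0.67). Against CP_0 the difference of CP_14 was -0.38 (SE 0.11, limma adjusted p = 0.028), which was no longer called without CP_0 replicate 2 (-0.38), CP_0 replicate 3 (-0.30), CP_14 replicate 1 (-0.35) or CP_14 replicate 2 (-0.44), with library size only (-0.22) or with all 12 libraries in one fit (-0.40). Chondrocytes had more miR-30c than CP_14 (log2 fold change 0.94, SE 0.094, limma adjusted p = 1.32e-05). This difference was called with each library left out and was 0.24 and not called with library size only (limma adjusted p = 0.057). The smaller difference of CC from CP_0 (0.43, limma adjusted p = 0.019) was lost without CC replicate 1 (0.39) or CC replicate 2 (0.40), with the replicate number as a block (limma adjusted p = 0.069) and with library size only (0.018). Between CC and CP_7, the highest pair, the log2 fold change was 0.0062 (95% interval -0.38 to 0.39), although it was 0.72 and called without CP_7 replicate 2 and 0.52 and called with upper-quartile factors. In this comparison the values of miR-30a-5p and miR-30f also moved upwards without CP_7 replicate 2, so the shift was not particular to miR-30c. The part of the TMM factors in this shared shift was not tested. The order of the levels of miR-30c was thus CC, CP_7, CP_0 and CP_14, and only the last neighbours differed beyond their spread.

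By comparison, all 6 members passed the filter on low counts and were tested in each of the 6 pairs of groups. From day 0 to day 7, 3 of 6 were called, miR-30b-5p and miR-30f higher and miR-30e-5p lower, where 63.8% of the 246 miRNAs tested were called, 35.8% higher and 28.0% lower. The median log2 fold change of the members was 0.29, against 0.075 over all miRNAs tested. From day 7 to day 14, 3 of 6 were called (52.8% of all), each of them lower (28.5% of all were called lower and 24.4% higher), with a median of -0.52 against -0.0089. Over both weeks 3 of 6 were called (46.0% of all), miR-30b-5p higher (24.8% of all) and miR-30c and miR-30e-5p lower (21.2% of all), with a median of -0.064 against 0.010. In CC against CP_14, 5 of 6 were called (74.6% of all), 4 of them higher, where 37.7% of all miRNAs were called higher and 37.0% lower, and the median was 0.72 against 0.086. In CC against CP_7, 4 of 6 were called (67.4% of all), miR-30d and miR-30e-5p higher (29.0% of all) and miR-30b-5p and miR-30f lower (38.4% of all), with a median of 0.18 against -0.089. In CC against CP_0, 4 of 6 were called (55.8% of all), miR-30c, miR-30d and miR-30e-5p higher and miR-30b-5p lower, with a median of 0.35 against 0.053. Of all 260 miRNAs tested there, 78 were called higher and 67 lower. The share of members called was thus near that of all miRNAs in each comparison. On levels normalized within each pair of groups, the members called were in each comparison those whose libraries did not overlap between the groups, which held for 67.9%, 62.2%, 56.4%, 78.6%, 70.7% and 63.1% of all miRNAs in the same order. The levels normalized over all 12 libraries differ in this. There the CC libraries of miR-30a-5p also lay above those of CP_7 and CP_0, and the CP_14 libraries of miR-30e-5p above those of CP_7, without a call. With a change of at least 2-fold asked for as well, 1 member was called in CP_14 against CP_0 (19.2% of all), 2 in CC against CP_14 (35.5% of all) and 1 in CC against CP_0 (19.6% of all). Under the same rule miR-30b-5p, miR-30e-5p and miR-30f kept their calls in CP_7 against CP_0 and in CC against CP_7. In CP_14 against CP_7, miR-30b-5p and miR-30f kept theirs. The share of all miRNAs under this rule was not taken for these pairs of groups. These comparisons share libraries and are not independent.

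**Figure D2:**
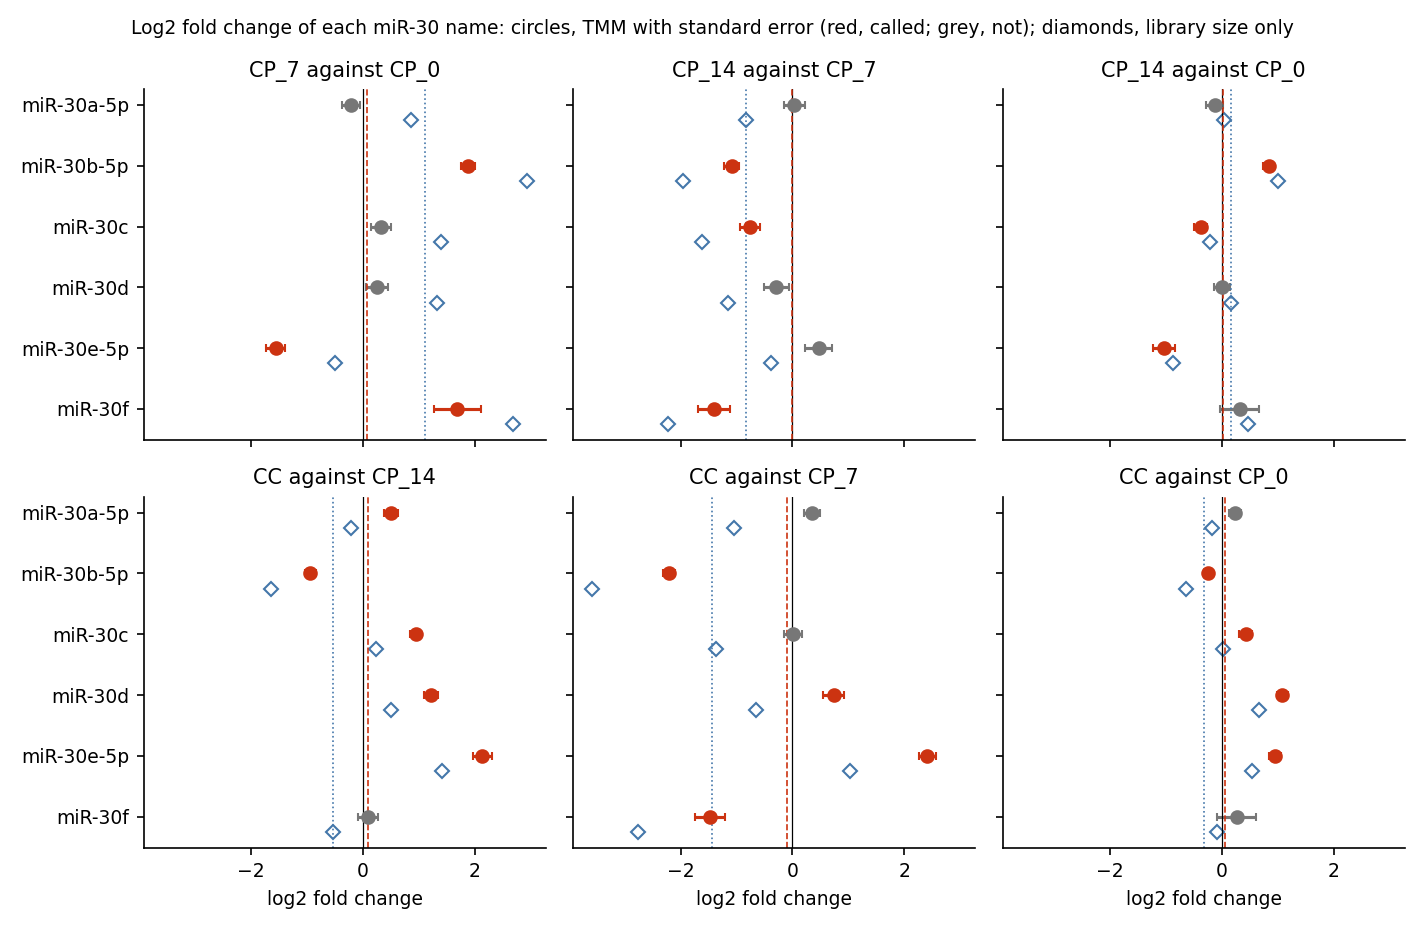
Log2 fold change of each miR-30 member in the 6 comparisons, after TMM normalization with its standard error (circles, red where the adjusted p by limma was below 0.05) and with library size only (open diamonds). The dashed red and dotted blue lines are the medians of all miRNAs tested under both scalings. In CP_7 against CP_0 the diamonds lie to the right of the circles for all 6 members, while miR-30e-5p is to the left of 0 under both.

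The scaling set the direction for part of the family. With library size only, the median of all miRNAs was 1.12 for CP_7 against CP_0, and all 6 members were called there (69.9% of all), 5 of them higher (61.8% of all), with miR-30e-5p still lower (8.13% of all; -0.49, limma adjusted p = 0.012). From day 7 to day 14 the same scaling gave 5 called (66.7% of all, 10.6% higher), all lower (56.1% of all), at a median over all miRNAs of -0.84. For CC against CP_7 all 6 were called (76.4% of all), miR-30e-5p higher (1.03; 7.25% of all) and 5 lower (69.2% of all), at a median of -1.44. The rise of miR-30b-5p at day 7 (2.95), its fall from day 7 to day 14 (-1.95), its lower level in CC than in CP_14 (-1.65) and the higher level of miR-30e-5p in CC than in CP_14 (1.42) and CP_0 (0.54) were called with library size only as well. On the reads as they were, with no correction for depth, miR-30b-5p was 0.73 for CP_7 against CP_0 and -0.025 for CC against CP_14, miR-30f was 0.63 and -0.25 for the rise and the fall around day 7, and none of these was called.

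The make-up of the family does not depend on library size, composition factors or miR-21-5p. In CP_0 the reads of the family were 37.7% ± 0.1 (SD, n = 3) miR-30a-5p, 34.6% ± 0.4 miR-30d, 21.5% ± 0.3 miR-30e-5p, 3.46% ± 0.47 miR-30c, 2.53% ± 0.29 miR-30b-5p and 0.23% ± 0.13 miR-30f. At day 7 miR-30e-5p made up 7.63% ± 0.92 and miR-30b-5p 9.83% ± 1.15, so that miR-30b-5p outnumbered miR-30e-5p in each CP_7 library. At day 14 miR-30e-5p was at 11.97% ± 1.06 and miR-30b-5p at 5.21% ± 0.45. In CC the shares were 25.01% ± 0.47 for miR-30e-5p and 1.28% ± 0.14 for miR-30b-5p. The share of miR-30a-5p was 34.1% ± 1.2 in CP_7, 39.6% ± 0.5 in CP_14 and 26.7% ± 0.2 in CC. That of miR-30d was 43.0% ± 2.8 in CP_7, 39.8% ± 0.3 at day 14 and 44.04% ± 0.27 in chondrocytes. For no library and member was the 95% Wilson interval of the share wider than 1.82 percentage points to each side, which covers counting error only.

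**Figure D3:**
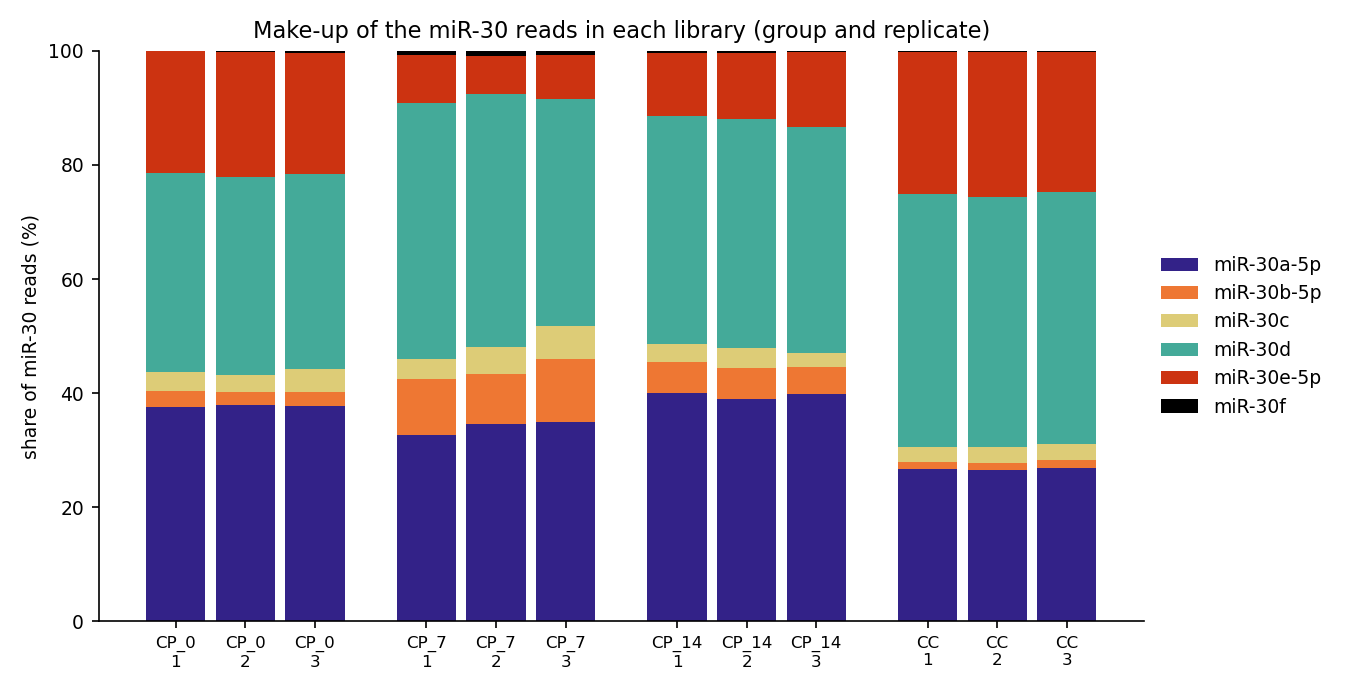
Share of each member in the miR-30 reads of each of the 12 libraries, as stacked bars that add up to 100%. miR-30e-5p takes 6.67% to 8.50% in the CP_7 libraries and 24.6% to 25.5% in CC, and miR-30b-5p takes 8.68% to 10.99% in CP_7 and 1.16% to 1.44% in CC.

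An exact permutation test of the F statistic over all 369600 ways to assign the 12 libraries to 4 groups of 3 was made for the share of each of the 6 members. These p-values are not adjusted for the 6 shares, which add up to 100% and so are not independent. For miR-30a-5p, miR-30b-5p and miR-30e-5p the exact p was 6.49e-05, the smallest that this test can give. The exact p was 0.0022 for miR-30d, 0.0029 for miR-30f and 0.026 for miR-30c. Over the 9 libraries of the time points alone, where the smallest possible p is 0.0036, the exact permutation p was 0.0036 for miR-30a-5p, miR-30b-5p and miR-30e-5p, 0.011 for miR-30d, 0.014 for miR-30f and 0.071 for miR-30c. The result for miR-30c over the 4 groups was lost without CP_7 replicate 2 (exact permutation p = 0.055), without CP_7 replicate 3 (0.096) or without CC replicate 1 (0.057), 2 (0.054) or 3 (0.054). Without CP_7 replicate 1 the exact permutation p for miR-30c was 0.0034 over the 4 groups and 0.018 over the time points.

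Ratios between members within a library showed the same order more directly, and are given as a description, since the pairs were chosen after the values were seen. For each 100 reads of miR-30a-5p there were 56.9 ± 0.7 (SD, n = 3) reads of miR-30e-5p in CP_0, 22.4 ± 3.4 at day 7, 30.2 ± 2.6 at day 14 and 93.7 ± 2.4 in CC. No library of CP_0 or CC overlapped another group in this ratio, and the CP_7 and CP_14 libraries lay close to each other, at 19.3 to 26.0 and 27.7 to 32.98. For each 100 reads of miR-30d, its cluster partner miR-30b-5p had 7.33 ± 0.81 reads in CP_0, 23.01 ± 4.15 at day 7, 13.1 ± 1.0 at day 14 and 2.91 ± 0.33 in CC. These members of a cluster thus changed unequally, and all 4 groups were separate. Reads of miR-30d per 100 of miR-30a-5p were 91.5 ± 1.2 in CP_0, 126 ± 12 at day 7, 100.6 ± 2.0 at day 14 and 164.9 ± 0.6 in CC. Reads of miR-30f per 100 of miR-30c were 6.46 ± 2.80 in CP_0, 17.4 ± 5.2 at day 7, 10.3 ± 0.02 at day 14 and 5.71 ± 0.91 in CC.

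**Figure D4:**
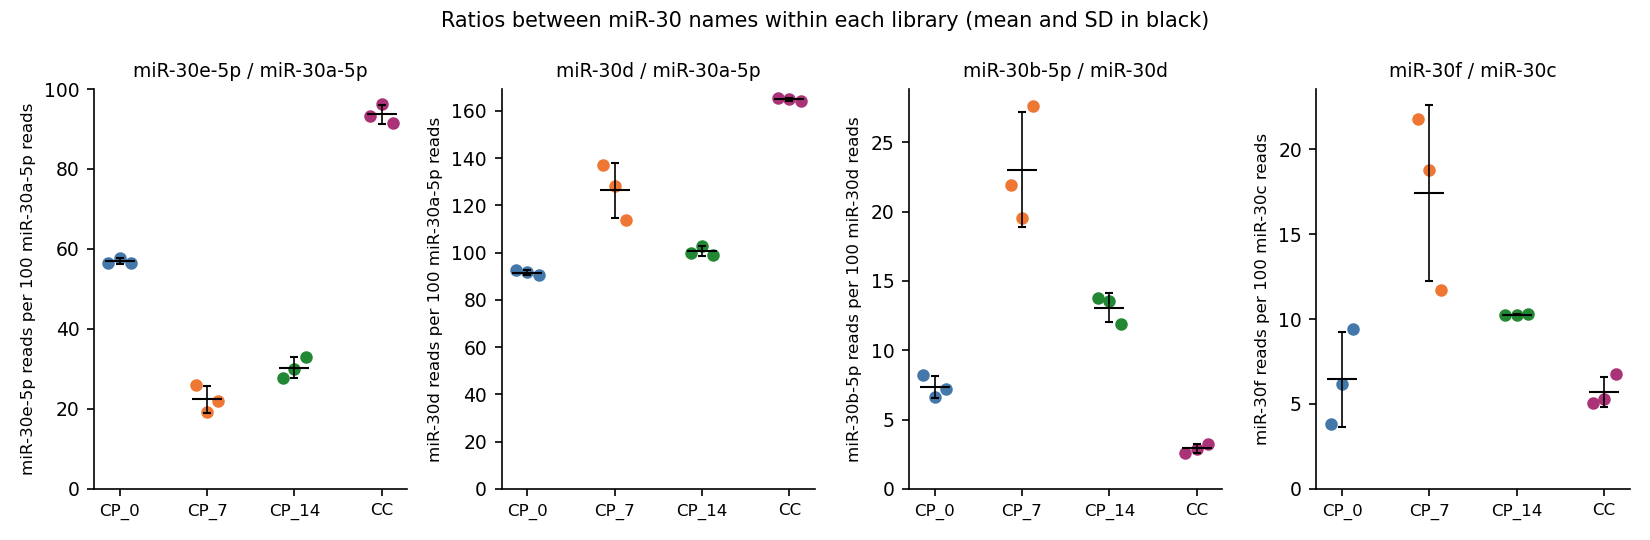
Reads of a member per 100 reads of another member in the same library, for miR-30e-5p over miR-30a-5p, miR-30d over miR-30a-5p, miR-30b-5p over miR-30d and miR-30f over miR-30c, with each library as a point and the mean and SD (n = 3) in black. The CC points of miR-30e-5p over miR-30a-5p lie at 91.5 to 96.1, above the CP_0 points at 56.4 to 57.7.

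The members also varied differently from each other over the 12 libraries. On log2(TMM-normalized RPM + 1), Pearson's r over these libraries, which fall into 4 groups and are not independent points, was 0.85 between miR-30a-5p and miR-30e-5p, 0.85 between miR-30a-5p and miR-30d, 0.77 between miR-30b-5p and miR-30f and -0.86 between miR-30b-5p and miR-30e-5p. Among the 170 other miRNAs that averaged at least 50 reads, the nearest to miR-30e-5p were miR-93 (r = 0.98) and miR-20a (0.98), both of the miR-17 family, and those nearest to miR-30b-5p were miR-221 (0.98) and novel_37 (0.97). The profile of miR-30d was nearest to those of miR-455-5p (0.97) and miR-26a (0.96). miR-30a-5p was nearest to miR-362-5p and miR-19b (both 0.90), miR-30c to miR-365-3p (0.89) and miR-199a-5p (0.88), and miR-30f to miR-155 (0.88) and let-7d (0.86).

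Other miRNAs known to act on RUNX2 (miR-23a, miR-34c, miR-133a, miR-133b, miR-135a, miR-137, miR-204, miR-205, miR-211, miR-217, miR-218 and miR-338) were set beside the family, of which miR-133a and miR-133b are also muscle markers. Of the 12 listed names, 6 were tested from day 0 to day 7, of which 2 were higher and 2 lower, where 35.8% of all miRNAs were called higher and 28.0% lower. The largest of these were miR-133b (log2 fold change 2.39, SE 0.82, limma adjusted p = 0.037) and miR-34c (-4.19, adjusted p = 0.0031). The value of miR-133b rests on few reads, 2, 3 and 9 in CP_0 and 4, 17 and 37 in CP_7. From day 7 to day 14, 1 of 6 was higher, miR-34c (5.71, limma adjusted p = 0.00016), and 1 was lower, miR-133a (-0.95, adjusted p = 0.011), where the shares of all were 24.4% and 28.5%. Over both weeks 2 of 7 were higher (24.8% of all) and 1 lower (21.2% of all). The median of the list was -0.28 from day 0 to day 7, 0.23 from day 7 to day 14 and 0.33 over both weeks. The medians of the miR-30 members were 0.29, -0.52 and -0.064 in the same order. In CC against CP_14, 2 of 8 were higher, with miR-218 the most (1.16, limma adjusted p = 1.28e-05), and 5 were lower, with miR-133b the most (-1.48, adjusted p = 0.00024), at a median of -0.60, where the median was 0.72 over the miR-30 members and 0.086 over all miRNAs, of which 37.7% were called higher and 37.0% lower. In CC against CP_7, 3 of 6 were higher (29.0% of all) and 2 lower (38.4% of all). The median there was 0.30 over the list, 0.18 over the miR-30 members and -0.089 over all miRNAs. In CC against CP_0, 3 of 6 were higher and 2 lower, where 78 of all 260 were called higher and 67 lower (55.8% in either direction). Here the median was 0.47 over the list, 0.35 over the miR-30 members and 0.053 over all miRNAs.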

How the data were processed

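The authors deposited, for each of the 12 libraries, RPM values, headed tpm but scaled only to 1000000 miRNA reads per library and not by length. CASAVA, bcl2fastq 1.8.4 and Bowtie are named in the submitters' processing notes, with trimming, allowed mismatches and database version not given in the sources used here. Every value was a whole multiple of the value of 1 read (100% within 0.01 read), so that reads were recovered. The smallest chi-square per degree of freedom between libraries of a group was 4.92, between CP_14 replicates 1 and 2. CP_14 replicate 3 stood at 252 and 213 from these, and the smallest value in another group was 25.6, in CP_7. No library was treated as a copy. A miRNA with 0 reads could be present at up to 5.56 RPM (3 reads) in the shallowest library and 0.29 in the deepest, for counting error only.

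Each pair of groups was fitted on its 6 libraries with limma 3.58.1 (R 4.3.3) (trend option, two-sided) on the log2 of TMM-normalized RPM + 1. This fold change understates that of low miRNAs. The filter was filterByExpr of edgeR 4.0.16 (minimum count 10, minimum total 15), with Benjamini-Hochberg adjustment over all miRNAs tested and a threshold of 0.05. Levels were normalized over all 12 together, and the scripts were checked on simulated data. Samples were not paired by replicate number in the main fit, since the study does not tie libraries to deer. Alternatives were other factors, edgeR's quasi-likelihood test and DESeq2 1.42.0 on recovered reads, no filter, pseudocounts of 0.5 and 5, a 2-fold threshold, a replicate block and leaving out each library. All members, 2 nearest miRNAs for each, a list of RUNX2-directed miRNAs with at most 2 named a comparison, and cell type markers were named by rule. Members and lists were chosen with earlier results of these data known.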

Additional observations from a re-analysis of the deposited data

How the results depend on the processing

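The number of miR-30 members called was within 1.5 times of that reported with RLE and upper-quartile factors, no normalization, the total without miR-21-5p, edgeR, DESeq2, a joint fit of all 12 libraries, no filter, both pseudocounts and each library left out. Under no normalization the calls behind these counts took other directions, with 2 higher and 0 lower in place of 0 and 3 for CP_14 against CP_7, 4 and 0 in place of 2 and 2 for CC against CP_7, 5 and 0 in place of 4 and 1 for CC against CP_14, 6 and 0 in place of 3 and 1 for CC against CP_0 and 0 and 2 in place of 2 and 1 for CP_7 against CP_0. The median of all miRNAs then lay between -1.04 and 2.15. With library size only the number of members called was 6 in place of 3 for CP_7 against CP_0 and 5 in place of 3 for CP_14 against CP_7. With at least 2-fold added it was 1 in place of 3 for CP_14 against CP_0, 2 in place of 5 for CC against CP_14 and 1 in place of 4 for CC against CP_0. In the other comparisons it stayed within 1.5 times of that reported. With the replicate block it was 2 in place of 4 for CC against CP_0, where miR-30b-5p and miR-30c lost their calls, and in CC against CP_7 the block added miR-30a-5p (0.35). No other call of a member changed with the block. For most pairs, libraries of the same number did not deviate together (correlation above 0.1 for 4 of 18 pairs, -0.29 to 0.17). Between CC and CP_7 the values were 0.13, 0.12 and 0.17. With 3 libraries a group such values cannot show whether libraries of a number share a deer or a batch. The shares within the family that differed were 6 over the 4 groups and 5 over the time points, and 6 and 4 with permutation within the replicate block, where that of miR-30f was lost over the time points (exact permutation p = 0.056).

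Of the 36 log2 fold changes of members, none changed sign with RLE factors, no filter, the replicate block or either pseudocount. Others did, with the cause not tested. With library size only, miR-30a-5p was 0.86 for CP_7 against CP_0, -0.83 for CP_14 against CP_7, 0.029 for CP_14 against CP_0, -0.21 for CC against CP_14, -1.04 for CC against CP_7 and -0.18 for CC against CP_0. miR-30f was -0.54 for CC against CP_14 and -0.081 for CC against CP_0, miR-30e-5p was -0.39 for CP_14 against CP_7, and for CC against CP_7 miR-30c was -1.38 and miR-30d -0.65. With no normalization, for CP_7 against CP_0, miR-30c was -0.82 and miR-30d -0.91, and for CP_14 against CP_7 miR-30b-5p was 0.12, miR-30c 0.46 and miR-30d 0.93. For CC against CP_7, miR-30b-5p was 0.10 and miR-30f 0.74, and for CC against CP_0 miR-30b-5p was 0.83. With upper-quartile factors, for CP_7 against CP_0, miR-30c was -0.018 and miR-30d -0.099, and for CP_14 against CP_0 miR-30d was -0.25. With the total without miR-21-5p, miR-30a-5p was -0.26 for CP_14 against CP_7, miR-30d -0.21 for CP_14 against CP_0 and miR-30b-5p 0.018 for CC against CP_0. For CP_14 against CP_0 miR-30d was -0.0091 with DESeq2 and -0.014 with all 12 libraries in one fit, and for CC against CP_7 miR-30c was -0.010 with edgeR. Leaving out each library changed the sign only of members that were not called. For CP_7 against CP_0 miR-30c ran from -0.052 to 0.39 and miR-30d from -0.13 to 0.39. For CP_14 against CP_7 miR-30a-5p ran from -0.14 to 0.30. For CP_14 against CP_0 miR-30d ran from -0.18 to 0.090 and miR-30f from -0.033 to 0.67. For CC against CP_7 miR-30c ran from -0.039 to 0.72, and for CC against CP_0 miR-30f ran from -0.075 to 0.62.

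Depth limits miR-30f most, at 19 to 61 reads in the CP_7 libraries, which held 539455 to 1032029 reads in all, and at 11 to 39 reads in CP_0. With 3 libraries a group, the counts of calls also rest on the composition factors, which averaged 0.88 in CP_0, 1.92 at day 7, 0.99 at day 14 and 0.60 in CC.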
